A study of Mus musculus with 24 samples.

Results

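Macroautophagy encloses cytoplasm in a double membrane, the autophagosome, and delivers it to the lysosome. A set of 43 genes that carry out its core steps was followed in the retinal pigment epithelium (RPE) of the mouse, the pigmented cell layer behind the retina. Members were taken by gene symbol, and all 43 were found among the 54532 genes of the count table. They fall into 5 steps: 5 genes of the ULK kinase complex, 8 of the class III phosphatidylinositol 3-kinase (PI3K) complexes, 9 that place and move membrane lipid, 15 of the conjugation of LC3 to lipid, and 6 of fusion with the lysosome. RNA came from wild-type 129S1/SvlmJ mice on an Rpe65 Leu450 background that lived on standard diet in 12-h cyclic light with light onset at 7 am. All groups share this genotype and housing, and the time of collection is the only difference between them that the labels give. The 8 groups were collected 0, 1, 3, 5, 6, 9, 15 and 16 h after light onset, with 3 mice at each time and 1 library per mouse. Their age is not stated in the labels. The stated purpose was to look for circadian control of autophagy and lysosome genes.

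As background, the ULK complex receives the signal to start, and the PI3K complexes then make the lipid phosphatidylinositol 3-phosphate on the forming membrane. Membrane grows from lipid brought by ATG9 vesicles and ATG2 transfer proteins, while 2 linked conjugation reactions attach LC3 and GABARAP proteins to its lipid. The RPE engulfs the tips shed by photoreceptor outer segments each morning, and it uses the PI3K complex that holds RUBCN and the LC3 conjugation enzymes, without the ULK complex, to coat these phagosomes with LC3. That route is called LC3-associated phagocytosis.

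Total counts ran from 14073440 to 17492470 per library. Values are given as CPM, a gene's counts scaled to a library of 1000000. All 12 RPE markers were found at a mean of at least 1 CPM, with a summed level from 35462 to 50691 CPM in 22 libraries. Genes listed as markers of other cells were present too. How far the RPE itself expresses these genes was not tested, so their sums do not measure a share of other cells. The inner retina list summed to 6034 to 9307 CPM, and that of melanocytes and Schwann cells to 4054 to 5866. Fibroblast and mural cell markers summed to 1771 to 2650 CPM. The 12 rod markers summed to 428 to 4051 CPM, highest at 0 h (2577 to 4051). In bulk RNA, fewer cells of a type and less RNA per cell cannot be told apart. The libraries of mouse 3 at 6 h and mouse 3 at 15 h stood apart from the other 22. The leading principal component took up 37.4% of the variance and put them at 53.3 and 237, with the remaining libraries from -27.7 to -3.66. Mitochondrial genes took 3.34% and 0.837% of their counts, against 3.84% to 6.81%. RPE markers summed to 54752 and 115045 CPM in them. The inner retina list summed to 10863 and 20415 CPM there, and the melanocyte and Schwann cell list to 5337 and 5412. Red blood cell markers summed to 3326 and 8767 CPM, against 399 to 1925 in the other 22. Calls of the members in each comparison are therefore counted over 24 libraries and over 22, the latter chosen because of these measurements. Values of single members are in many places given over 22 only. In the 22-library fits 6 h and 15 h hold 2 mice each.

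The autophagy transcripts themselves showed how far these libraries deviated. In mouse 3 at 6 h, 11 of the 43 members lay over 0.5 log2 units from the mean of the 22 others, 5 above and 6 below, and in mouse 3 at 15 h 20 did, 7 above and 13 below. No more than 2 members did so in any other library. The share over all genes was 40.4% and 72.2% in these libraries and 14.9% to 20.7% elsewhere. In mouse 3 at 15 h Vamp8, a fusion SNARE, was 2.57 log2 units high, Atg101 2.15, Gabarap 1.63 and Map1lc3a 1.18. The lipid scramblase gene Atg9a stood at -3.71, Atg2b at -1.69, Uvrag at -1.49 and Becn1 at -1.36. Short genes tended to be high and long genes low. The 10 members under 2600 bases had median deviations of 0.40 and 0.61 in the 6 h and 15 h library, and the 33 longer members -0.14 and -0.34. Across the 43 members, Spearman's rho of deviation with gene length was -0.588 and -0.471, as a description of members that share a library. The other 22 libraries had rho between -0.416 and 0.431.

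**Figure D1:**
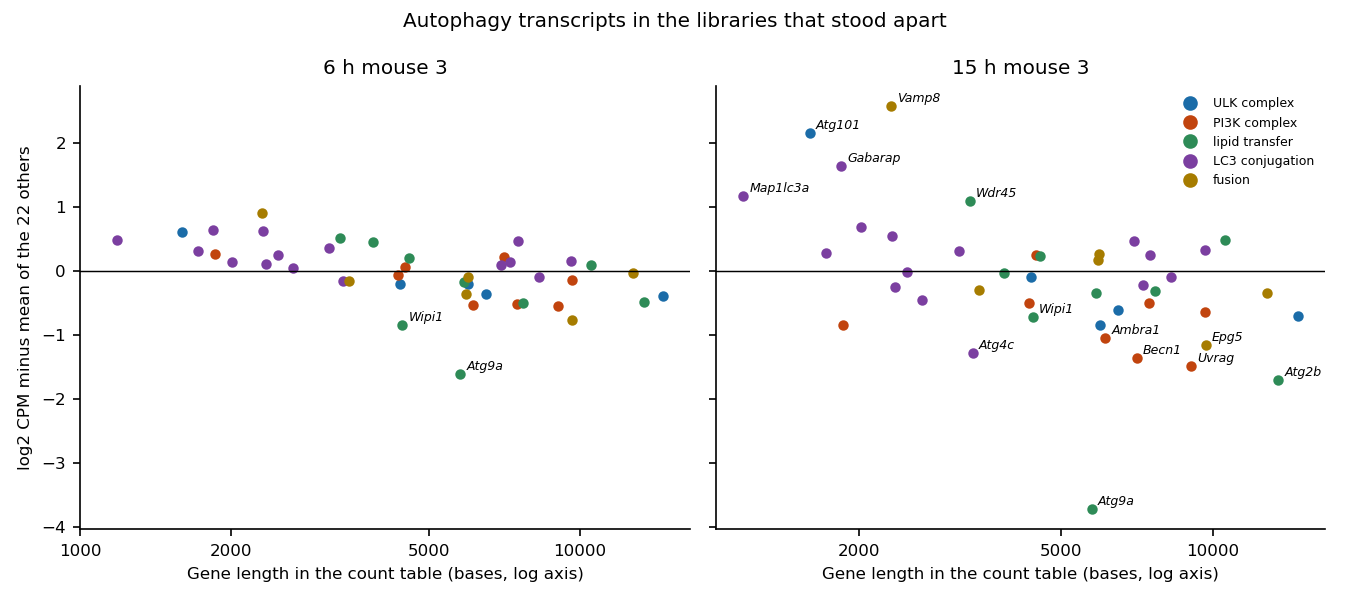
Deviation of each of the 43 members in the libraries that stood apart, as log2 CPM minus the mean of the 22 other libraries, against gene length in the count table (log axis); each point is 1 gene, coloured by step. In mouse 3 at 15 h Vamp8 lies at 2.57 and Atg9a at -3.71, and longer genes tend to lie lower in both panels.

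Gabarap had the highest level of the set for its length, followed by Map1lc3a, Vamp8 and Gabarapl1. Levels between genes are compared as CPM per kilobase of gene length, with medians over 22 libraries. By step, the medians of these levels were 11.3 for LC3 conjugation, 10.9 for fusion, 10.7 for the ULK complex, 6.82 for lipid transfer and 5.08 for the PI3K complexes. Single members ranged from 140.3 for Gabarap to 2.67 for Atg2b. Map1lc3a followed at 118.7, Vamp8 at 104.2, Gabarapl1 at 90.1 and Atg12, the ubiquitin-like partner of Atg5, at 48.9. Gabarap exceeded Map1lc3a in 20 of 22 libraries, and Map1lc3a exceeded Vamp8 in 21 of 22, but the ranges of these neighbours over libraries overlapped. Gabarapl1 lay above Atg12, and Atg12 above Gabarapl2 (32.8), in every one of the 22 libraries and with no overlap of ranges. The place of Atg12 rests on the 2492 bases the count table gives it. The exons of Atg12 in GENCODE vM21 cover 7711 bases, with which its level would be 15.8, below Gabarapl2. For 41 of the 43 members both lengths are the same, and Epg5 is the other exception (9672 and 10039 bases). From Gabarapl2 and Wipi1 (30.1) down to Atg2b, each gene's range overlapped that of the next.

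**Figure D2:**
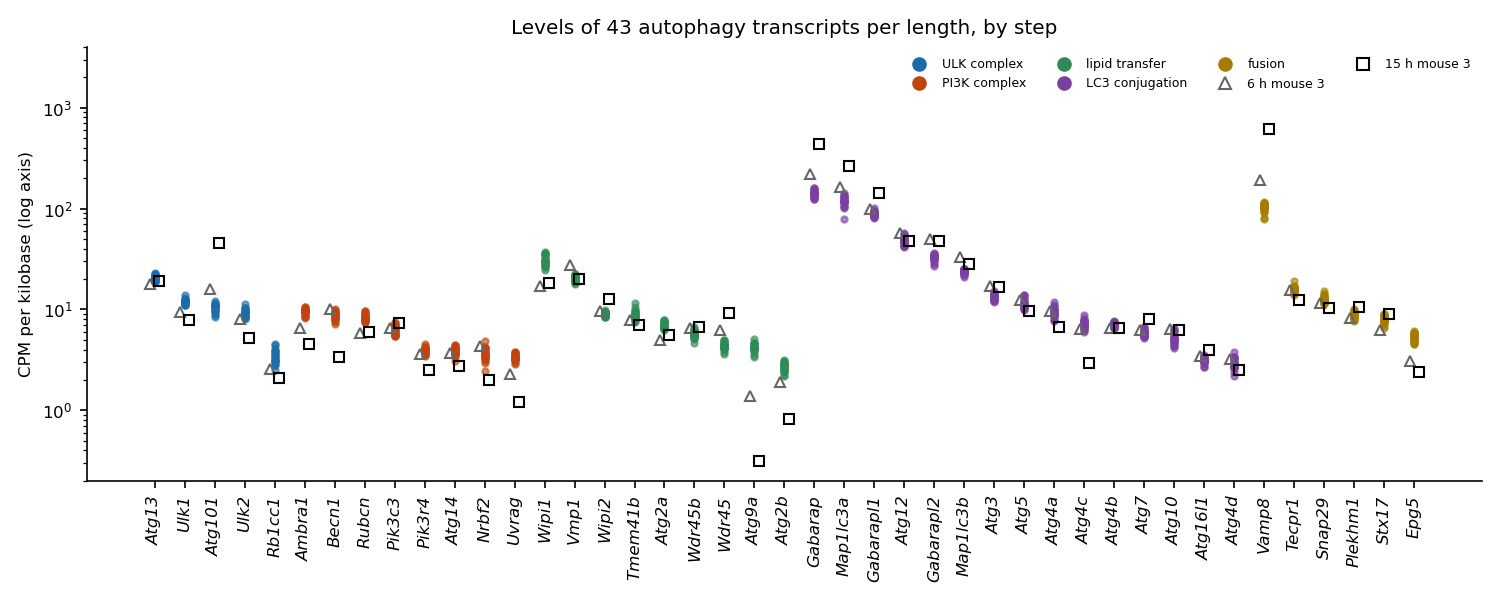
Level of each of the 43 members as CPM per kilobase (log axis), grouped by step and ordered by median; each dot is 1 of 22 libraries, the triangle is mouse 3 at 6 h and the square mouse 3 at 15 h. Gabarap, Map1lc3a, Gabarapl1 and Vamp8 lie highest, and the squares of Atg9a, Atg101 and Vamp8 lie far from their dots.

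LC3 and GABARAP proteins are the ubiquitin-like tags that mark autophagosome membrane and recruit cargo receptors. Of the summed per-length level of the 5 genes, Gabarap took a median of 34.5% (range 32.1% to 37.3% over 22 libraries), Map1lc3a 29.1% and Gabarapl1 21.8%. Gabarapl2 took 8.05% and Map1lc3b, the isoform most often followed by antibody, 5.76% (5.32% to 7.28%). Map1lc3a exceeded Map1lc3b in all 22 libraries, with a median ratio of 5.21 (3.13 to 6.04). This order rests on one length per gene, and the Map1lc3b gene model is long (7517 bases against 1181 for Map1lc3a). On the CPM scale, which does not divide by length, Map1lc3b had a median of 179 and Map1lc3a of 140.2.

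Per length, the close relatives compared, other than Atg4b and Atg4c, kept 1 order in most or all libraries. For its length, Wipi1 exceeded its relative Wipi2 in 22 of 22 libraries, with a median ratio of 3.36 (2.74 to 4.15). That ratio was 1.77 and 1.46 in mouse 3 at 6 h and mouse 3 at 15 h. Atg2a, which moves lipid into the growing membrane, exceeded Atg2b by a median of 2.61-fold, also in 22 of 22. Among the proteases that process LC3, Atg4a exceeded Atg4b in 22 of 22 libraries (median ratio 1.30), and Atg4b exceeded Atg4d in 22 of 22 (2.48). Atg4b and Atg4c had a median ratio of 0.97, with Atg4b higher in 9 of 22, so no order held between them. These orders hold per length: on the CPM scale Atg4b (median 58.3) exceeded Atg4a (24.5) and Atg4c (24.1). The kinase gene Ulk1 exceeded Ulk2 in 21 of 22 (1.30). Within the PI3K complexes, Rubcn exceeded Uvrag in 22 of 22 (2.51). Uvrag exceeded Atg14, which marks the alternative complex of autophagosome formation, in 3 of 22 (median ratio 0.87), although its median CPM was higher (30.5 against 16.9).

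The central question was whether these transcripts vary over the day. Of the 43 members, 0 passed the test of any difference between times in 24 libraries, where 1.08% of all genes tested passed (edgeR's quasi-likelihood test with Benjamini-Hochberg adjustment over all 18065 genes, adjusted p under 0.05). At an unadjusted p under 0.05, 3 of 43 members and 17% of all genes passed. DESeq2 called 1 member, Vamp8 (its share of all genes is not given). In 22 libraries 2 of 43 passed, Wipi1 and Tmem41b, where 15.6% of 18388 genes did. The members' share was below that of all genes. The range between the highest and lowest of the 8 time means had a median of 0.24 log2 over the members and 0.50 over all genes, in 22 libraries. In 24 libraries those medians were 0.30 and 0.67. All genes were not matched to the members for level. Genes tested had to pass a minimum count of 10, while the lowest median count of a member was 108 (Nrbf2).

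The members also differed little from mouse to mouse. Within a time, the SD of log2 CPM had a median of 0.11 over the members (0.05 to 0.22) and 0.19 over all genes, in 22 libraries. The SD of the 8 time means had a median of 0.08 over the members, where the spread within times alone would give 0.06. Over all genes, again not matched for level, these medians were 0.17 and 0.12. Across the 22 libraries the highest value was 1.17 times the lowest for Atg4b, the least variable member, and 1.99 times for Nrbf2, the most variable.

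**Figure D3:**
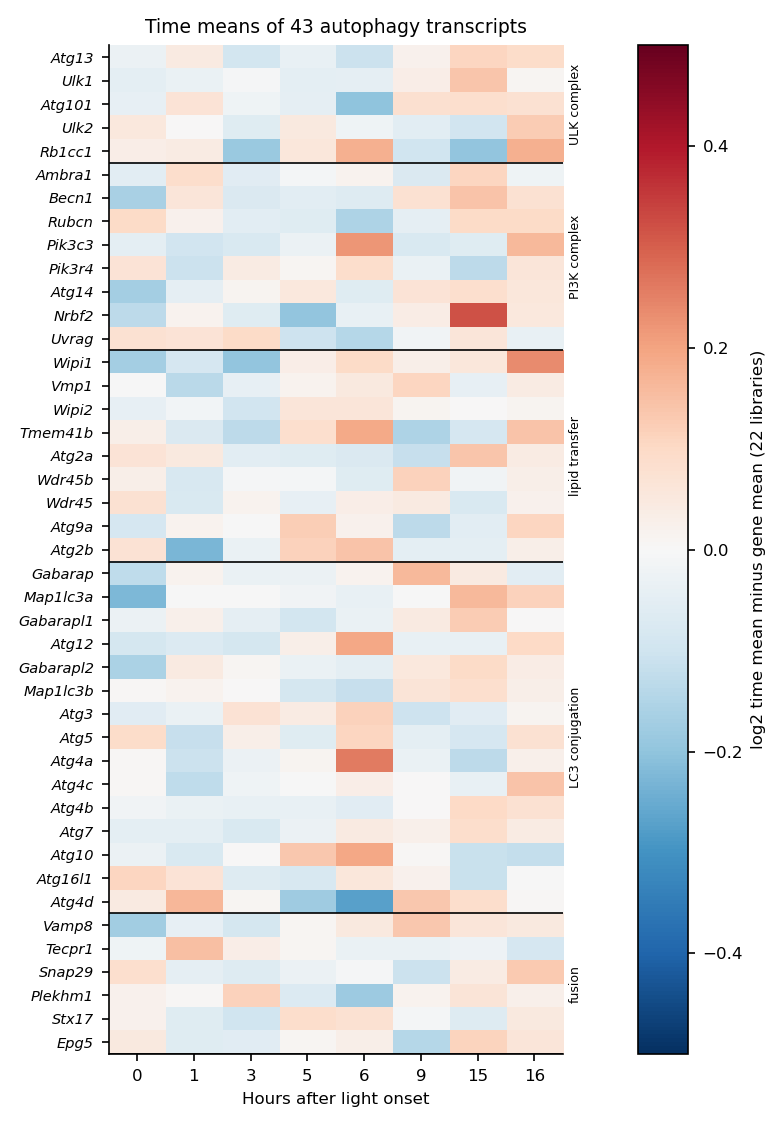
Mean log2 CPM of each of the 43 members at each time minus that gene's mean over the times, in 22 libraries; rows are genes grouped by step, columns hours after light onset, red higher and blue lower. Colours stay pale because the median range over times was 0.24 log2, and Wipi1 at 16 h is among the darkest cells.

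Wipi1 changed over time and was higher at 16 h, in the dark phase, than at light onset, in 22 libraries. It encodes a propeller protein that binds phosphatidylinositol 3-phosphate on the forming autophagosome (ENSMUSG00000041895, mm10 chr11:109573331-109611967, minus strand). Light onset (0 h) gave 109.7, 130.0 and 119.8 CPM, at 1 h 127, 123 and 132, and at 3 h 120.3, 116 and 116. The next times gave 157, 135 and 122 (5 h), 155, 133 and 74.5 (6 h), and 137, 136 and 139 (9 h). At 15 h the values were 129.8, 151 and 81.5, and at 16 h 164, 154 and 159. All 3 mice at 16 h lay above all 3 at 0 h, and the low values at 6 h and 15 h are those of mouse 3, from the libraries that stood apart. Wipi1 rose by 0.41 log2 from 0 h to 16 h (SE 0.08, adjusted p = 0.00631), and its test over all times gave a range of 0.43 log2 and an adjusted p of 0.00719. In 24 libraries the same time test gave an adjusted p of 0.656. The call at 16 h held in all 26 alternatives run on the 22 libraries (adjusted p from 0.000286 to 0.0479).

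RPE markers moved with Wipi1 in part. Their sum was 35492 to 42242 CPM at 0 h and 42055 to 50691 CPM at 16 h, while the rod markers summed to 2577 to 4051 CPM at 0 h and 500.3 to 1577 CPM at 16 h. The part of these differences in the Wipi1 result was not tested. The RPE sum at 3 h, 35462 to 39194 CPM, was also low when Wipi1 was low. At 9 h the RPE sum, 38025 to 43073 CPM, overlapped that of 0 h, while Wipi1 had 136 to 139 CPM. In mouse 3 at 6 h and mouse 3 at 15 h the order was opposite. Their RPE sums were high, 54752 and 115045 CPM, and their Wipi1 values low, 74.5 and 81.5 CPM.

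A 24 h wave fitted Wipi1 with a peak-to-trough difference of 0.31 log2 (jackknife SE 0.07) and a peak at 12.9 h (SE 1.3), adjusted p = 0.0279, in 22 libraries. It was the 1 member of 43 called by this test there, and 6.12% of all genes were called. In 24 libraries 0 of 43 were called, against 1.67% of all genes, and Wipi1 had 0.20 log2 and an adjusted p of 0.665. The peak falls between 9 h and 15 h, where no mouse was sampled. Leaving out any of 6 further libraries (mouse 1 at 0 h, mouse 2 at 3 h, mouse 2 at 15 h, or any mouse at 16 h) put its adjusted p between 0.0508 and 0.0743.

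Tmem41b also varied over time in 22 libraries. It encodes a lipid scramblase of the endoplasmic reticulum that acts with VMP1 as autophagosome membrane forms (ENSMUSG00000047554, mm10 chr7:109972187-109986929, minus strand). The mice of 0 h had 56.2, 53.9 and 50.3 CPM, those of 1 h 49.5, 52.8 and 47.2, and those of 3 h 50.3, 44.6 and 48.8. The 5 h mice had 58.2, 55.2 and 53.3, the 6 h mice 57.2, 62.3 and 46.6, and the 9 h mice 46.7, 45.0 and 49.7. At 15 h they were 49.1, 49.97 and 41.1, and at 16 h 52.8, 52.8 and 68.1. All 3 mice at 5 h and mouse 1 and mouse 2 at 6 h lay above all 3 mice at 3 h and at 9 h. The time means spanned 0.35 log2 (adjusted p = 0.0425), and no single time differed from 0 h (lowest adjusted p = 0.224, at 9 h). The fitted 24 h wave was 0.04 log2. The call over time held in 12 of 26 alternatives on the 22 libraries, with adjusted p from 0.00944 to 0.1002, and it was lost with limma-voom (0.065), with library totals only (0.0805) and without any 1 of 12 libraries. In 24 libraries the adjusted p was 0.373. RPE markers summed to 42807 to 46884 CPM at 5 h, 46292 to 48578 at 6 h and 42055 to 50691 at 16 h, against 35462 to 39194 at 3 h and 38025 to 43073 at 9 h. Their part in the Tmem41b result was not tested.

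**Figure D4:**
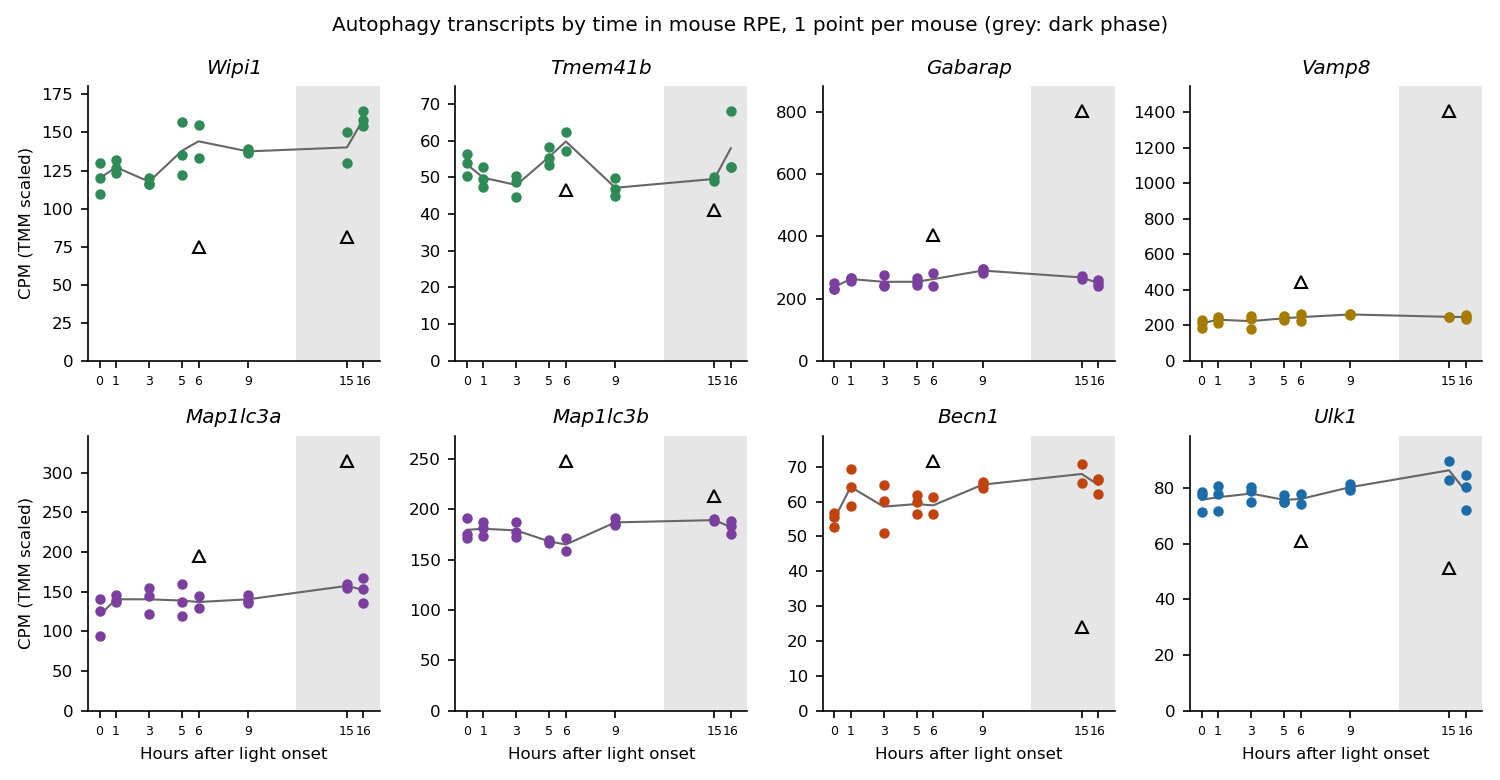
CPM of 8 members against hours after light onset; each filled dot is 1 mouse, open triangles are mouse 3 at 6 h and mouse 3 at 15 h, lines join the means without them, grey marks the dark phase, and each vertical axis starts at 0 with its own scale. Wipi1 lies at 154 to 164 at 16 h against 109.7 to 130.0 at 0 h, and the triangles of Gabarap and Vamp8 at 15 h lie far above all dots.

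Gabarap was higher at 9 h than at light onset in 22 libraries. It encodes a ubiquitin-like tag of the autophagosome (ENSMUSG00000018567, mm10 chr11:69991143-69994951, plus strand). The mice of 0 h had 230.1, 231 and 250.5 CPM, those of 1 h 266, 264 and 258, those of 3 h 277, 239.7 and 245, and those of 5 h 265, 243 and 253. In the later groups the values were 241, 284 and 404 for 6 h, 293, 294 and 282 for 9 h, 271, 264 and 803 for 15 h, and 259.8, 239.8 and 249.9 for 16 h. The 9 h values all lay above the 0 h values, and the 404 and 803 belong to the libraries that stood apart. From 0 h to 9 h Gabarap rose by 0.29 log2 (SE 0.07, adjusted p = 0.00964). It was the 1 member called higher at 9 h, where 3.61% of all genes were called higher in 22 libraries. In 24 libraries 0 members were called at 9 h. Leaving out mouse 1 or mouse 2 at 0 h took the adjusted p to 0.0508 and 0.0535, and its test over all times gave 0.0891. Endothelial markers summed to 711 to 1147 CPM at 9 h and 495 to 793 CPM at 0 h, and rod markers to 458 to 1058 CPM at 9 h. Their part in the Gabarap result was not tested.

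Contrasts of each later time with 0 h gave few other calls. All of them share the 0 h mice. In 24 libraries, 0 of 43 members were called at each of the 7 times, where 0.0111% of all genes were called at 1 h, 0% at 3 h, 0.111% at 5 h, 0.166% at 6 h, 0.747% at 9 h, 0.41% at 15 h and 0.116% at 16 h. At an unadjusted p under 0.05, 5 members passed at 6 h (8.96% of all genes did), 10 at 15 h (25.8% of all genes) and 0 at the other 5 times. DESeq2 called 5 at 15 h (its share of all genes is not given). In 22 libraries the share of all genes called was 0.337% at 1 h, 0.299% at 3 h, 2.9% at 5 h, 2.35% at 6 h, 8.1% at 9 h, 1.41% at 15 h and 2.18% at 16 h. Among the members only Gabarap at 9 h and Wipi1 at 16 h (1.32% of all genes were called higher) passed. At an unadjusted p under 0.05 there were 6, 1, 2, 8, 8, 10 and 8 members at the 7 times in order, where 13.1%, 10.3%, 15.7%, 16.6%, 23.6%, 15.4% and 15.1% of all genes passed. At 1 h, when the RPE takes up the shed outer segment tips, the 95% interval of the log2 difference from 0 h lay within 0.5 either way for 42 of 43 members in 22 libraries. The exception was Nrbf2, which reached 0.52 with the lowest CPM of the set (median 6.67). In 24 libraries 28 of 43 intervals did so, and the limits reached 1.11, for Atg9a.

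Night against day gave 0 calls among the 43 members, with 24 libraries and with 22. The contrast set 15 and 16 h (6 libraries) against 1, 3, 5, 6 and 9 h (15 libraries). Of all genes, 1.39% were called in 24 libraries and 4.63% in 22. At an unadjusted p under 0.05, 7 of 43 members passed in each, against 17.8% and 17.6% of all genes. DESeq2 called 2 on the 22 libraries, Atg13 and Wipi1 (its share of all genes is not given). The log2 differences in 22 libraries ran from -0.18 (Atg10) to 0.22 (Nrbf2), and all 43 of their 95% intervals lay within 0.5 either way. The farthest limit was 0.46, for Nrbf2. In 24 libraries 38 of 43 did so, and the exceptions were Atg101, Atg9a, Map1lc3a, Gabarap and Vamp8, whose limits reached 1.16 for Vamp8. The median size of the difference was 0.06 for the members and 0.11 for all genes, not matched for level, in 22 libraries. In those libraries 30 of 43 differences were positive, and 8835 of 18388 over all genes. Over 24 libraries 27 members were positive with TMM scaling and 16 with library totals, so there a shared direction depended on the scaling. The library of mouse 3 at 15 h, with a TMM factor of 0.729 against 0.966 to 1.05 elsewhere, is part of the 24 only. The swap therefore cannot decide whether the direction in the 22 libraries depends on the scaling. On those, 26 alternatives were run, library totals only among them. Over these the difference stayed positive for Ulk1 (0.06 to 0.12), Atg13 (0.12 to 0.14) and Map1lc3b (0.06 to 0.09). It stayed negative for Gabarap (-0.06 to -0.01) and took both signs for Pik3c3 (-0.02 to 0.13). The number of positive members with library totals is not given there.

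**Figure D5:**
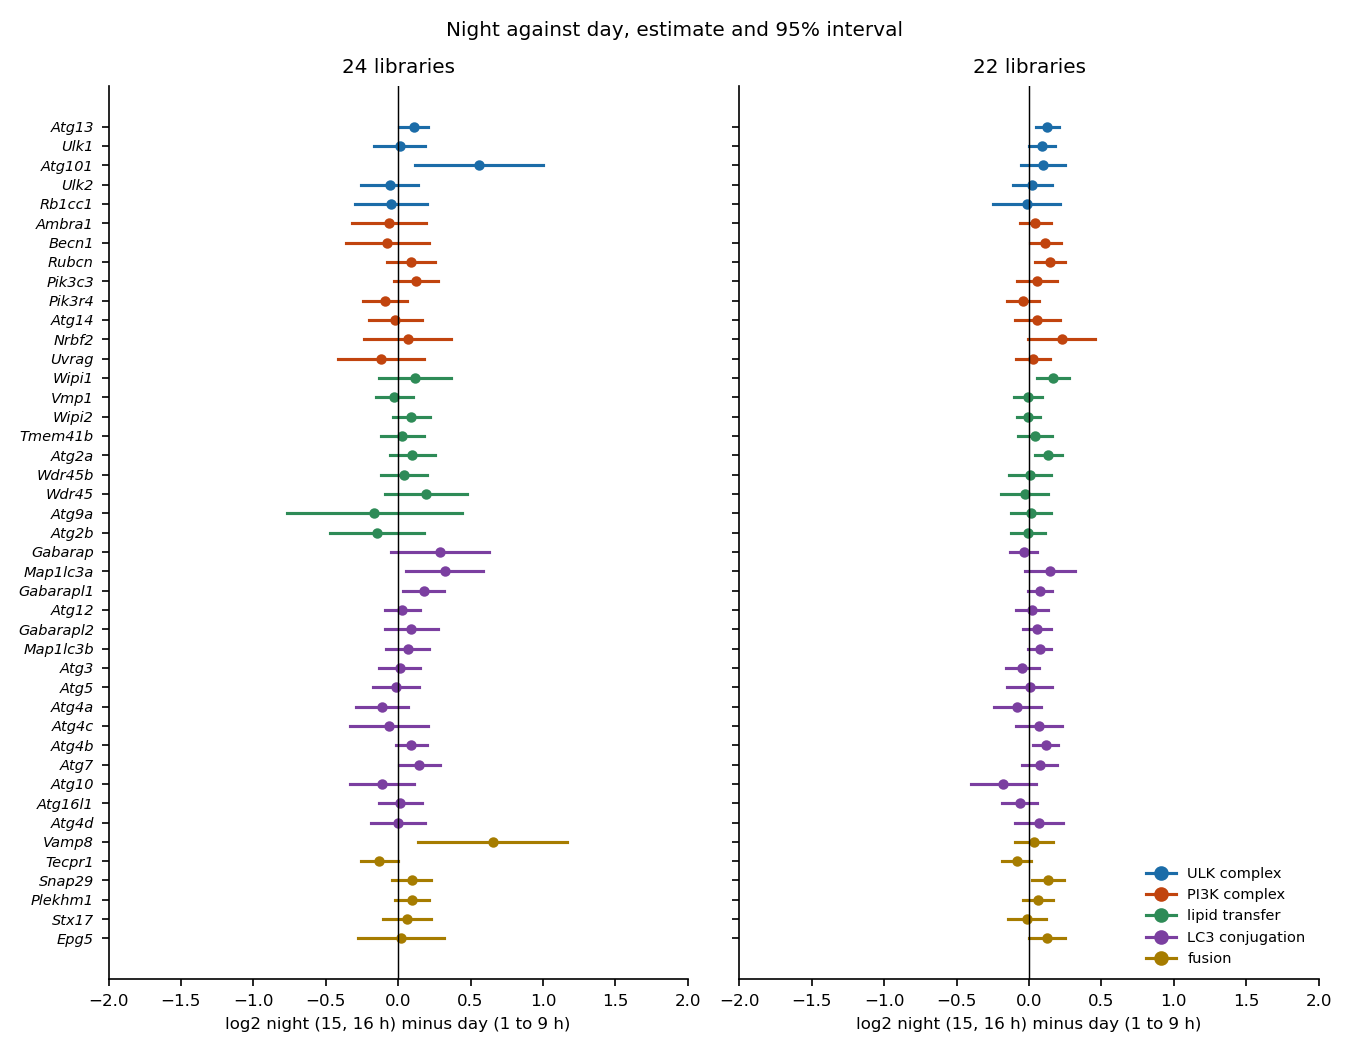
Log2 difference of night (15 and 16 h) minus day (1 to 9 h) for each of the 43 members with its 95% interval, from 24 libraries (left) and 22 libraries (right); dots are estimates, bars intervals, colours steps. At right all 43 intervals stay within 0.5 either way, and at left that of Vamp8 reaches 1.16.

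Within the ULK complex, 0 of 5 members were called by edgeR in any comparison, in 24 or in 22 libraries. Ulk1, the initiating kinase, had 71.4 to 89.7 CPM over 22 libraries (median 78.1), and 60.8 and 51.1 in mouse 3 at 6 h and mouse 3 at 15 h. Its time range was 0.18 log2 in 22 libraries (adjusted p = 0.495). Atg13, the adaptor that links the kinase to its partners, ran from 81.2 to 99.8 CPM with a median of 90.2. In 22 libraries night exceeded day by 0.13 log2 for Atg13 (95% interval 0.05 to 0.21, adjusted p = 0.0625). This was the closest of this step to the threshold there, and DESeq2 gave an adjusted p of 0.0202. In 24 libraries the edgeR adjusted p of Atg13 for night against day was 0.254. Rb1cc1, the large scaffold FIP200, had a wider spread, 36.5 to 67 CPM (median 49.6), and an adjusted p of 0.482 over time. Its highest value was that of mouse 1 at 0 h, where the other mice had 46.1 and 41.5. All 5 genes had positive differences at 16 h against 0 h, with a median of 0.12 log2, and none passed the test. Over the whole set 33 of 43 differences were positive there in 22 libraries, and over all genes 9165 of 18388.

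Of the 8 PI3K genes, edgeR called 0 in any comparison. Becn1, the regulatory core of both complexes, had 50.9 to 70.6 CPM over 22 libraries (median 61.9), and 71.7 and 23.9 in mouse 3 at 6 h and mouse 3 at 15 h. The 3 mice at 0 h had 55.6, 52.6 and 56.6 CPM and the pair kept at 15 h had 65.2 and 70.6. These groups did not overlap, and the difference of 0.30 log2 had an adjusted p of 0.0974. Becn1 shares 43.9% of its exonic bases with Cntd1 on the opposite strand, and the reads carry no strand. Pik3c3, the lipid kinase itself, ran from 24.2 to 33.5 CPM (median 27.5, adjusted p over time 0.159). Rubcn, which holds back the UVRAG complex in autophagy and is needed for LC3-associated phagocytosis, ran from 55.6 to 72.4 CPM (median 61.2). At 5 and 6 h its 5 values in the 22 libraries were 55.6 to 61.2, and at 16 h they were 71.7, 68.7 and 59.7. Its fitted 24 h wave of 0.24 log2 in 22 libraries peaked at 19.1 h, outside the sampled times, with an adjusted p of 0.0525. In 24 libraries the adjusted p of its wave was 0.372. That wave was called in 5 of 26 alternatives on the 22 libraries, among them DESeq2 (0.0147) and RLE scaling (0.0425). Nrbf2 had the widest time range of the whole set in 22 libraries, 0.50 log2, and an adjusted p of 0.502.

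Among the 9 genes of lipid placement and transfer, 2 were called over time in 22 libraries, Wipi1 and Tmem41b. Atg9a, whose vesicles seed the membrane, had 19.4 to 29.1 CPM over 22 libraries (median 24), but 7.94 in mouse 3 at 6 h and 1.80 in mouse 3 at 15 h, the latter from 20 counts. Its time range was 0.69 log2 in 24 libraries (adjusted p = 0.926) and 0.25 in 22 (adjusted p = 0.417). It shares 32.6% of its exonic bases with Gm29253 and Ankzf1. Atg2a had a fitted wave of 0.23 log2 in 22 libraries with an adjusted p of 0.0533. It was called in 6 of 26 alternatives there, among them DESeq2 (0.0181) and RLE scaling (0.0483). In 24 libraries the adjusted p of its wave was 0.286. Atg2b had an adjusted p of 0.0716 over time in 22 libraries (called in 4 of 26 alternatives, DESeq2 among them), and 0.773 in 24. Its lowest mean in the 22 libraries was at 1 h, 0.29 log2 below 0 h. Wipi2, Wdr45, Wdr45b and Vmp1 had time ranges of 0.16 to 0.24 log2 in 22 libraries.

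Of the 15 LC3 conjugation genes, edgeR called 1 in any comparison, Gabarap. Atg5 and Atg7 are the genes most often deleted to block both autophagy and LC3-associated phagocytosis. Atg5 ran from 23.2 to 33.0 CPM over 22 libraries (median 26.6), with an adjusted p of 0.612 over time, and Atg7, the activating enzyme, from 36.1 to 46.4 (median 40.0, adjusted p = 0.798). Atg12 ran from 104.2 to 141.3 CPM (median 122, adjusted p = 0.135). Map1lc3b kept within 158 to 191 CPM (median 179) and had a night minus day difference of 0.07 log2 (95% interval -0.01 to 0.15). Map1lc3a ran from 93.8 to 167 CPM (median 140.2), with its lowest value in mouse 1 at 0 h, and it had 195 and 315 in mouse 3 at 6 h and mouse 3 at 15 h. Gabarapl1 ran from 162 to 202 CPM (median 181) and Gabarapl2 from 63.3 to 84.3 (median 76.3). Their adjusted p-values over time were 0.284 and 0.217 in 22 libraries. Gabarapl1 shares 28.3% of its exonic bases with a gene on the opposite strand.

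None of the 6 fusion genes was called by edgeR. Vamp8, the SNARE on the lysosome side, had 187, 215 and 230.1 CPM at 0 h and 265, 262 and 255 at 9 h. The groups did not overlap, and the difference of 0.31 log2 had an adjusted p of 0.052 in 22 libraries. It was called in 7 of 26 alternatives there, among them DESeq2 (0.0317) and library totals only (0.0466). The libraries of mouse 3 had 441 CPM at 6 h and 1406 at 15 h, against 181 to 266 in the others. With them, the range over time was 1.59 log2 (adjusted p = 0.188), and without them 0.31 (adjusted p = 0.276). DESeq2 on 24 libraries called Vamp8 over time (adjusted p = 0.0135). Plekhm1, an adaptor between LC3 and the tethering complex, ran from 46.0 to 60.1 CPM over 22 libraries (median 54.3, adjusted p = 0.239). Stx17, Snap29, Epg5 and Tecpr1 had time ranges of 0.19 to 0.24 log2 and adjusted p-values of at least 0.28.

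Called genes were picked by tests on these same data, so their sizes of change are given for scale only. In 22 libraries the range over time of called genes had a median of 0.58 log2 and a 10th percentile of 0.34, and the smallest was 0.20. Called 24 h waves had a median of 0.51, a 10th percentile of 0.29 and a minimum of 0.17, and called night minus day differences 0.31, 0.18 and 0.12. The clock gene Arntl, which encodes BMAL1, had a wave of 2.21 log2 in the same fit (2.22 in 24 libraries). The members' fitted waves had a median of 0.13 log2, against 0.25 for all genes, which were not matched for level. Fitted peaks of 16 members fell between 9 and 15 h and of 17 after 16 h, spans with no sample.

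Other genes of the pathway that are not part of the 43 were counted from 3 lists. Of 19 other autophagy genes tested, 3 varied over time in 22 libraries (Bcl2l1, Smcr8 and Trp53inp2), 2 were higher at night and 1 lower (Dram1). Of all genes, 15.6% varied over time there, 2.75% were higher at night and 1.89% lower, and 0.88% were higher at night in 24 libraries. In 24 libraries only Bcl2l1 was called over time, with a 24 h wave and for night against day. It encodes BCL-xL, which binds BECN1, and it had a 24 h wave of 0.74 log2 (adjusted p = 0.00185) in 24 libraries and of 0.62 peaking at 14.6 h in 22. Of 17 HOPS, RAB7 and SNARE partners, 2 varied over time in 22 libraries and 0 in 24. Rilp, a RAB7 effector of lysosome transport, was higher at night by 0.32 log2 in 22 libraries (adjusted p = 0.00457) and by 0.59 in 24 (adjusted p = 0.0303). Of 12 genes of LC3-associated phagocytosis outside the machinery, 4 varied over time in 22 libraries and 0 in 24. These were Cybb, Cyba and Ncf1, subunits of the phagocyte NADPH oxidase, and Rac1, the GTPase that activates it. Cybb was lower at night by 0.26 log2 (adjusted p = 0.0479). Phagocytes express this oxidase as well, and the macrophage and mast cell markers summed to 1114 to 1629 CPM over the 22 libraries. By time, these markers summed to 1176 to 1629 CPM at 0 h and 1297 to 1338 at 9 h. At 15 h they summed to 1155 to 1192 CPM and at 16 h to 1114 to 1187. Their part in these calls was not tested.

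Clock proteins and the lysosomal regulator TFEB both bind the E-box CACGTG, so promoter windows were searched for it. RefSeq windows (GRCm38.p6) from 250 bases before to 50 after a RefSeq start of a gene were held for 35 of the 43 members, 40 windows in all. The letters CACGTG, the same on both strands, occurred in 6 of 40 windows (15%) and in 7.15% of 32851 windows of all genes. TCACGTGA, which contains it, occurred in 2 of 40 (5%, Atg3 and Nrbf2) and in 0.974% of all. The clock output motif TTATGTAA, on either strand, occurred in 0 of 40 and in 0.938% of all. Stretches of 30 bases around the E-boxes that lie wholly before the start are shown because they belong to genes of the LC3-associated route (Rubcn, Atg7 and Atg3) or hold the longer motif (Atg3 and Nrbf2). They read 5′ to 3′ on the gene's strand, with the motif in capitals.
Rubcn (chr16:32868437-32868466, minus strand): cgcctagcacatCACGTGtacccaggttag
Atg7 (chr6:114670952-114670981, plus strand): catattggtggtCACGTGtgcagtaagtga
Atg3, upstream box (chr16:45158723-45158752, plus strand): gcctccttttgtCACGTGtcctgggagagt
Atg3, downstream box (chr16:45158746-45158775, plus strand): ggagagtcgagTCACGTGAggccttaggtg
Nrbf2 (chr10:67285472-67285501, minus strand): gacccggctcaTCACGTGAcagccgccgcc

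The motif began 88 bases before the RefSeq start of its window in Rubcn, 132 in Atg7, 94 and 71 in Atg3, and 208 in Nrbf2. In Atg5 it began 14 bases before the start and in Atg14 1 base before it. The windows with the motif in Rubcn, Atg7 and Atg14 lie inside the gene's span in the count table, not at its end. On the minus strand the span of Rubcn begins at 32877766. The other Rubcn window (chr16:32877680-32877979) covers that place and holds no E-box. The span of Atg7 begins at 114643097 and its window at 114670846. By edgeR none of these 6 genes was called over time or with a 24 h wave, although DESeq2 called the wave of Rubcn. Their waves ran from 0.04 to 0.26 log2 in 22 libraries with a median of 0.16. The 29 members whose windows hold no E-box had waves of 0.02 to 0.31 with a median of 0.12, and Wipi1, Tmem41b and Gabarap are among them.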

How the data were processed

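RNA-seq counts of 24 mouse RPE libraries were used as deposited, 1 column per mouse. The authors' values are whole-number read counts per gene, not normalized. STAR, HTSeq and the mm10 build stand in the submitters' processing notes; their roles, versions and settings are not given in the sources used here. Libraries were made from total RNA with NEBNext Ultra RNA, per the labels' protocols. All sample columns were matched to labels, and the labels give biological replicates, taken as separate mice. Time within the day was the only grouping.

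Genes passing filterByExpr (minimum count 10 on the time groups) were fitted with edgeR 4.0.16 in R 4.3.3, with TMM scaling and robust quasi-likelihood. Tests were of any difference between times, of a 24 h cosine and sine, of night against day, and of 7 times against 0 h. P-values were adjusted by Benjamini-Hochberg over all genes tested, and adjusted p under 0.05 was a call. CPM are TMM-scaled over 24 libraries. Per-length levels divide by the gene length in the count table. The scripts were tested on simulated data. Alternatives were DESeq2 1.42.0, limma-voom (limma 3.58.1), RLE scaling, library totals, no filter and leaving out libraries. Each of the 24 pairs of libraries within a time differed beyond sampling noise (lowest chi-square per degree of freedom 6.51).

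Members and lists were chosen with earlier results of these data known. Values are given for members called in any comparison, for the pair in each step with the lowest adjusted p over time in 22 libraries, for the 5 LC3 and GABARAP genes, and for Ulk1, Becn1, Atg5, Atg7, Atg9a and Rubcn. Other members named beside these were chosen after their values were seen. By identifier, 43 members were found in GENCODE vM21 (GRCm38), and 14 share exonic bases with another gene, 6 of them over 10% (Becn1, Atg9a, Gabarapl1, Wdr45, Atg4d and Uvrag). Their values are less certain.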

Additional observations from a re-analysis of the deposited data

How the results depend on the processing

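Counts below are of the 43 members called. The share of all genes called under these alternatives is not given. Whether a member count lies above or below that share cannot be read from it. In 24 libraries, where all 10 comparisons called 0, DESeq2 called 1 over time and 5 at 15 h against 0 h. Leaving out 1 library at a time gave 0 to 2 over time, 0 to 3 for night against day, 0 to 1 at 6 h and 0 to 8 at 15 h. The high values came without mouse 1 or mouse 2 at 15 h (7 and 8 at 15 h), and the 1 at 6 h (Rubcn) without mouse 3 at 15 h. Without the 2 libraries that stood apart the counts were 2 over time, 1 with a 24 h wave, 1 at 9 h and 1 at 16 h. From those 22-library counts, library totals only gave 1 over time and 2 at 9 h. DESeq2 gave 5 over time, 5 with a wave, 2 for night against day and 2 at 9 h, limma-voom 1 over time, and RLE scaling 3 with a wave and 1 for night against day. These settings on the 22 libraries were chosen after seeing the data. Leaving out a further library gave 1 to 3 over time, 0 to 2 with a wave, 0 to 2 for night against day, 0 to 1 at 1 h, 0 to 1 at 6 h, 0 to 3 at 9 h and 0 to 2 at 15 h. The wave count was 0 without mouse 2 at 15 h, mouse 1 at 16 h or mouse 2 at 16 h, and the 9 h count 0 without mouse 1 or mouse 2 at 0 h. The cause of these differences was not tested. Scaling by library totals only moved the median of all genes at 15 h against 0 h by -0.14 log2. With the replicate number as a block, run on the 24 libraries only, 0 members were called in each comparison, as without it. The labels tie no mouse of one time to a mouse of another, and the values do not decide whether the numbers pair them. Of 84 same-numbered pairs, 16 deviated together (r over 0.1). Their median r was 0.02 (-0.29 to 0.49), against -0.01 for other pairs, and 12 of 24 libraries correlated best with their own number. Depth limits Nrbf2 most, with a median of 108 counts. No direction of a called value reversed.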
